A study of Mus musculus with 12 samples.

Results

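The 10 genes of the hyaluronan system described here were followed across 12 mouse breast tumours: the synthases Has1, Has2 and Has3, the hyaluronidases Hyal1, Hyal2 and Hyal3, the receptors Cd44 and Hmmr, and the hyaluronan-binding matrix genes Vcan and Tnfaip6. They were chosen by gene symbol and made up 10 of the 25116 genes in the deposited count table. E0771 cells, which model triple-negative breast cancer in the mouse, had been placed in mammary fat pads of C57BL/6J hosts, and the allografts were collected at day 22. All host mice, controls included, carried Tie2CreER, a tamoxifen-activated recombinase driven in endothelial cells, and ERKi, an inducible knock-in gene for endorepellin. Induced tumours (n = 7) came from hosts given tamoxifen before the tumour cells, and control tumours (n = 5) from hosts given a control injection. Tamoxifen went to the induced hosts only, so its own effect and that of endorepellin cannot be told apart. The study asks what endothelial endorepellin does to gene expression in the tumour.

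Total counts were 18993192 to 28372821 per library. The deposited text does not say whether each tumour came from its own mouse, so p-values measure the spread between these samples only. In a principal component analysis, 4 tumours (induced 3, induced 4, control 1 and control 2) lay apart from the other 8 on the first component. The analysis used the 15199 genes that passed a filter on low counts, and that component held 45.6% of the variance. Vim, a mesenchymal intermediate filament gene, ranged from 3890 to 7826 CPM (counts scaled to a common library total with TMM factors). The epithelial genes Krt8 and Epcam stayed at or below 2.29 and 1.36 CPM, so the epithelial markers of the labelled carcinoma line were nearly absent. Of the receptors that define the triple-negative class, Esr1 reached 3.47 CPM, Pgr 0.309 CPM and Erbb2 35.9 CPM.

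Hyaluronan is a long, unbranched sugar polymer of the extracellular matrix. Synthases in the plasma membrane build it from UDP-glucuronic acid and UDP-N-acetylglucosamine and extrude it from the cell, and hyaluronidases and oxidants cut it into fragments that are taken up and broken down in lysosomes. Cells sense it through receptors such as CD44, and matrix proteins such as versican and TSG-6 bind and crosslink it. In breast tumours a hyaluronan-rich stroma is a well-known feature, and endothelial cells and fibroblasts both contribute to it.

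No member that could be tested differed between induced and control tumours beyond the spread of the tumours. Of the 10 members, 9 passed the filter on low counts and Has2 did not. By edgeR's quasi-likelihood test 0 of the 9 had an adjusted p under 0.05, against 0% of the 15199 genes tested. None of the 9 reached an unadjusted p under 0.05 either, where 2.13% of all genes did (0.592% higher and 1.54% lower in induced tumours). That held in the reported fit but not in every alternative. Cd44 had an unadjusted p of 0.0205 with limma-voom and of 0.00888 without induced 4, and Tnfaip6 had 0.0301 without induced 4 and 0.0497 without the 4 tumours that lay apart, all with adjusted p of 0.728 or more in the edgeR and limma fits. Of these members 5 had a fold change above 0, against 49.8% of all genes, and their median log2 fold change was 0.05 against a median of -0.00083 over all genes. No member had groups that did not overlap, which 0.0592% of all genes had. Every member tested had an adjusted p of 0.99989.

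**Figure D1:**
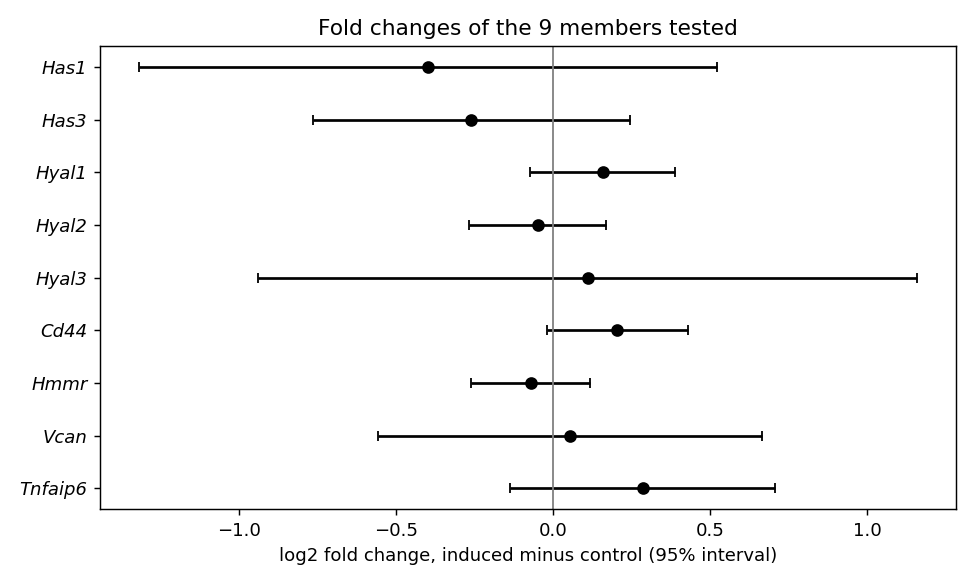
Log2 fold change, induced minus control, of the 9 members that passed the filter (x axis) with its 95% interval from the edgeR fit (bars). All 9 intervals cross 0, from the narrow ones of Hmmr (-0.26 to 0.12) and Hyal2 (-0.27 to 0.17) to the wide ones of Hyal3 (-0.94 to 1.16) and Has1 (-1.32 to 0.52).

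The members covered a wide range of levels. Per length, in CPM per kb of exon, Cd44 was highest at 76.2 ± 9.51 (SD over all 12 tumours), followed by Hmmr at 21.6 ± 1.88 and Hyal2 at 11.9 ± 1.28. The ranges of these 3 did not overlap. Tnfaip6 (6.78 ± 1.78), Vcan (4.91 ± 1.84) and Hyal1 (2.87 ± 0.274) followed, and each of these overlapped with its neighbour in the order. Only 3.92% of the genes tested had a higher level per length than Cd44, while 86.6% were above Has3. A gap separated Hyal1, whose lowest tumour was at 2.37, from Has3, whose highest was at 0.588. Has3 (0.427 ± 0.105), Hyal3 (0.214 ± 0.118), Has1 (0.147 ± 0.0753) and Has2 (0.0959 ± 0.195) overlapped in sequence, and Hyal3 was above Has1 in just 6 of 12 tumours. All 3 synthase transcripts thus stood at the low end, below the receptors, in every tumour.

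**Figure D2:**
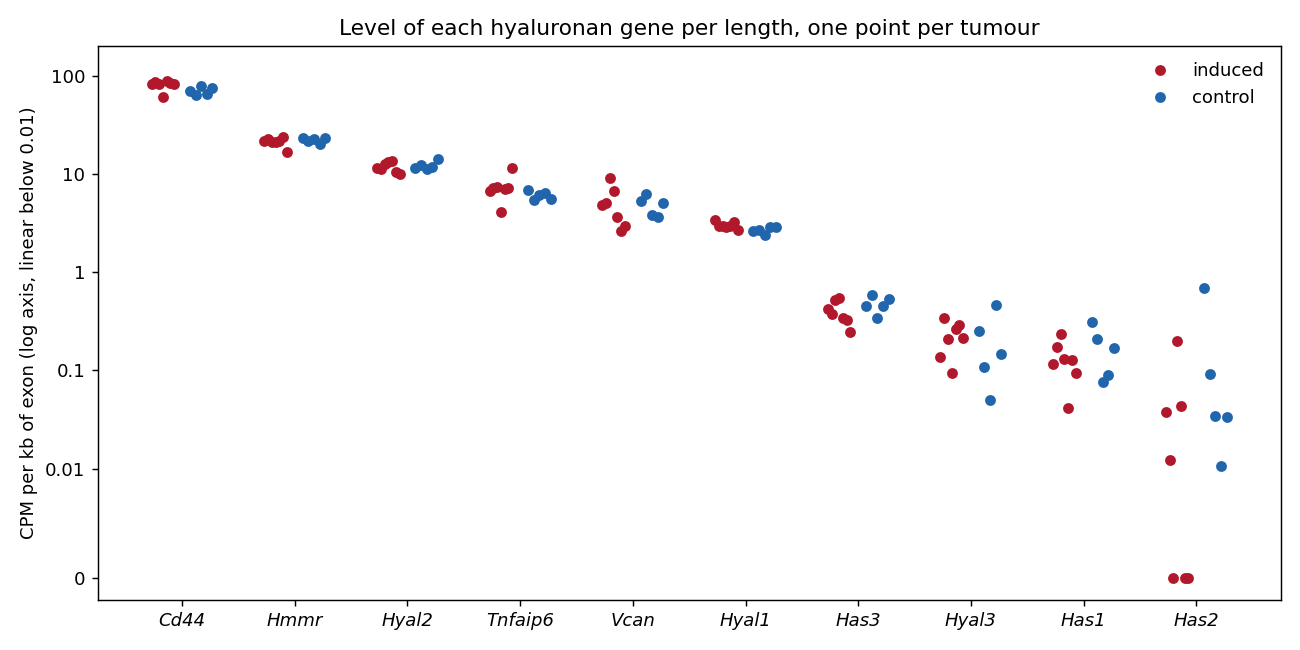
Level of each member in CPM per kb of exon (y axis, logarithmic above 0.01 and linear below), one point per tumour, with induced tumours to the left of control tumours. Cd44 lies between 60.3 and 87.9, the 3 synthases reach at most 0.687, and Has2 is at 0 in 3 induced tumours.

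The synthases were read from few counts. Has3, which makes shorter hyaluronan chains than Has2 in cell culture, was the most counted of the 3 in 11 of 12 tumours. In induced tumours its lowest, median and highest values were 1.57, 2.37 and 3.47 CPM, against 2.88, 3.75, 2.15, 2.91 and 3.39 CPM in controls 1 to 5. The 2 groups overlapped, with induced 7 lowest and control 2 highest. Its log2 fold change was -0.26 (95% interval -0.77 to 0.25), a fold of 0.835 with an interval from 0.588 to 1.19. Behind these values stood 40 to 94 counts per induced tumour and 44 to 107 per control tumour. Of its exonic bases 5.52% also lie in exons of Chtf8 on the opposite strand, and whether the counting used strand is not stated in the sources used here. The gene spans chr8:106870242-106884566 (plus strand, GRCm38).

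Has1, the least active of the mammalian synthases in vitro, had 4, 11 and 21 counts (lowest, median and highest) in induced tumours, against 40, 27, 7, 9 and 16 in controls 1 to 5. In CPM it averaged 0.590 ± 0.275 in induced and 0.767 ± 0.426 in control tumours (SD, n = 7 and n = 5). Control 1 was highest and induced 5 lowest, and 5 of 7 induced tumours lay below the control mean. The log2 fold change was -0.40 (95% interval -1.32 to 0.52), and leaving out 1 tumour moved it between -0.60 (without induced 3) and -0.08 (without control 1). Without control 3 it was -0.59, and without the 4 tumours that lay apart -0.04. Has1 spans chr17:17843323-17855205 (minus strand).

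Has2, the synthase required for heart development in the mouse and a maker of very long chains, had 11 or fewer counts outside 2 tumours. Its counts in induced tumours 1 to 7 were 3, 1, 0, 23, 4, 0 and 0, a sum of 31, against 84, 11, 3, 1 and 3 in controls 1 to 5, a sum of 102. Induced 4 and control 1 were far above the others of their group. In the tumours at 0 counts, induced 3, induced 6 and induced 7, a level up to 0.152, 0.155 and 0.115 CPM is allowed (3 counts per library, counting error only). Mean Has2 was 0.178 ± 0.306 CPM in induced and 0.726 ± 1.23 CPM in control tumours (SD, n = 7 and n = 5). Without control 1 the means were 0.178 ± 0.306 CPM in induced and 0.180 ± 0.145 CPM in control tumours (SD, n = 7 and n = 4). With induced 4 left out as well they were 0.0658 ± 0.0848 CPM in induced and 0.180 ± 0.145 CPM in control tumours (SD, n = 6 and n = 4), so how the groups compare depended on which tumours were kept. With no filter on low counts edgeR fitted a difference of -1.94 on the log2 scale (SE 1.10) that did not pass the test (adjusted p = 0.99983). Has2 spans chr15:56665627-56694539 (minus strand), and 4.30% of its exonic bases are shared with the antisense gene Has2os.

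The mix of the 3 synthases stood out in 2 tumours, 1 of each group. As a share of the synthase counts of a tumour, Has3 took 70.7% to 85.5% in induced tumours and 40.1% to 86.5% in control tumours. In control 1, Has2 was 40.6% of 207 synthase counts (95% exact binomial interval 33.8% to 47.6%), just above Has3 at 40.1%. In induced 4 Has2 was 17.3% of 133 counts (interval 11.3% to 24.8%), and in the other 10 tumours it was at most 7.59%. The intervals cover counting error only, as reads amplified by PCR are not independent molecules.

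**Figure D3:**
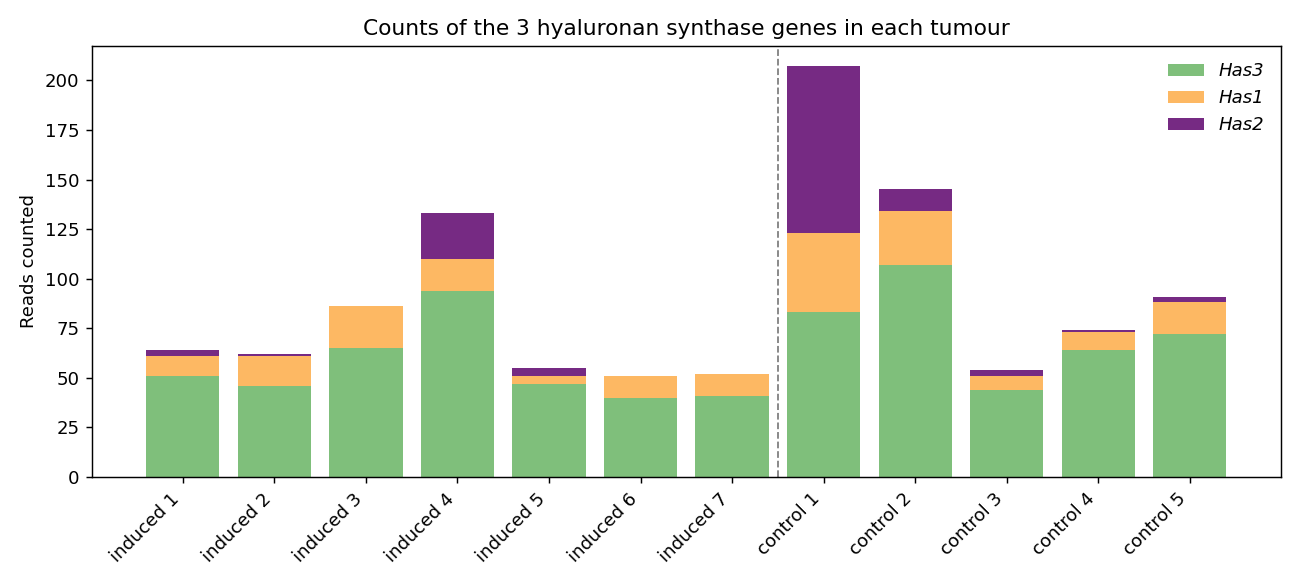
Reads counted to Has3, Has1 and Has2 (stacked bars, y axis) in each of the 12 tumours, induced tumours on the left of the dashed line and control tumours on its right. Has2 makes up 84 of 207 counts in control 1 and 23 of 133 in induced 4, and 11 or fewer counts elsewhere.

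These 2 tumours also had the highest summed level of 10 fibroblast markers, at 2233 CPM in induced 4 and 3650 CPM in control 1. The sum ranged from 637 to 2233 CPM over induced and from 781 to 3650 CPM over control tumours, and none of the 10 markers was at 0 in any tumour. All 10 were lower in value in induced tumours, with a median log2 fold change of -0.90, where 49.8% of all genes were higher. By edgeR 1 of the 10 had an unadjusted p under 0.05, which 2.13% of all genes had, and none an adjusted one. As markers of 1 cell type they are not 10 separate observations. For some markers the lower value in induced tumours leaned on control 1. Dcn was at 146 CPM there and at 2.45 to 7.85 CPM in the other controls, against an induced mean of 8.72 CPM. Col1a1 was at 589 CPM there and at 33.5 to 83.6 CPM in the other controls, against an induced mean of 108 CPM. The values of these markers in the fit without control 1 are not reported here. Summed macrophage markers were also highest there, at 736 CPM in induced 4 and 1369 CPM in control 1. The part of these cells in the Has2 values was not tested. In bulk tumour RNA, fewer cells of a type and less RNA per cell cannot be told apart.

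Most hyaluronidase counts came from 1 gene. Hyal2, a GPI-anchored enzyme at the cell surface that cuts hyaluronan into intermediate fragments, made up 72.9% to 79.6% of the hyaluronidase counts in induced and 76.6% to 80.8% in control tumours. Its lowest, median and highest values were 32.7, 38.0 and 44.6 CPM in induced tumours, against 37.7, 40.4, 36.5, 38.7 and 47.1 CPM in controls 1 to 5. Control 5 was highest, induced 7 lowest, and the groups overlapped. On the log2 scale the fold change was -0.05 (95% interval -0.27 to 0.17), and without control 5 its sign turned, to 0.02. Without the 4 tumours that lay apart it was -0.14. The interval corresponds to folds from 0.831 to 1.12. Hyal2 spans chr9:107567945-107572779 (plus strand).

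Hyal1, the lysosomal hyaluronidase that digests hyaluronan to small oligosaccharides, had the smallest pooled standard deviation within groups of the members tested, on the log2 scale. Its values were 10.0, 11.1 and 12.8 CPM (lowest, median and highest) in induced tumours, against 9.88, 10.0, 8.94, 10.9 and 10.9 CPM in controls 1 to 5. In all, 5 of 7 induced tumours were above every control tumour, a pattern picked out after the values were seen, and 1.09% of the genes tested had at least as many. Its fold was 1.12, or 0.16 on the log2 scale (95% interval -0.07 to 0.39, edgeR). That standard deviation was 0.12, and 95.5% of the genes tested had a larger one. Of the exonic bases of Hyal1, however, 50.8% also lie in exons of Naa80, an actin acetyltransferase gene on the same strand, and 4.21% in exons of Hyal3. How reads in shared bases were counted is not stated, so the count may hold reads of Naa80 or miss reads of Hyal1. The same limit holds for the level of Hyal1 and for the shares of the hyaluronidases. Hyal1 spans chr9:107576927-107581710 (plus strand), next to Hyal2.

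Hyal3, a paralogue in the same cluster with little known activity of its own, had 5, 11 and 13 counts (lowest, median and highest) in induced tumours, against 14, 6, 2, 20 and 6 in controls 1 to 5. Control 4 was highest and control 3 lowest, so the induced tumours lay inside the range of the controls. Fitted on the log2 scale, the fold change was 0.11 (95% interval -0.94 to 1.16), which turned to -0.07 without control 2 and to -0.14 without control 3. Hyal3 (chr9:107580818-107587359, plus strand) shares 8.16% of its exonic bases with Hyal1 and 6.06% with Naa80.

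Cd44, which encodes the best-known hyaluronan receptor and is a marker of mesenchymal and stem-like breast cancer cells, came closest to a difference and did not pass the test. In induced tumours 1 to 7 it was at 551, 579, 560.1, 409, 595, 574 and 556 CPM, against 474, 427, 527, 440.0 and 502 CPM in controls 1 to 5. Thus 6 of 7 induced tumours were above every control tumour, and induced 4 was below every control tumour. Among all genes tested 0.204% had at least 6 induced tumours above every control, a rule set after the values were seen. By edgeR the difference was 0.20 on the log2 scale (95% interval -0.02 to 0.43, SE 0.10, adjusted p = 0.99989), a fold of 1.15 with an interval from 0.986 to 1.35. Without induced 4 it was 0.26 (adjusted p = 0.908), and over 19 alternatives it ranged from 0.16 to 0.26, with adjusted p from 0.728 to 1. Counts were 10430 to 14567 per induced tumour and 9692 to 13685 per control tumour, so counting error was small beside the spread of tumours. The standard deviation within groups was 0.16 on the log2 scale.

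Cd44 spans chr2:102811141-102901665 (minus strand), and 1 count covers all its splice forms, so standard and variant CD44 were not separated. The splicing regulator Esrp1, picked after its values were seen, favours the variant exons in epithelial cells. It averaged 0.0322 ± 0.0228 CPM in induced and 0.0986 ± 0.110 CPM in control tumours (SD, n = 7 and n = 5). These values rest on 0 to 6 counts per tumour, and Esrp1 did not pass the filter. The related splicing regulator Esrp2, with 3 to 16 counts, did not pass it either. Esrp2 averaged 0.277 ± 0.140 CPM in induced and 0.349 ± 0.183 CPM in control tumours. The promoter of Cd44, the most abundant member, is shown as RefSeq gives it for GRCm38.p6, from 250 bases before to 50 after the start of the gene, 5′ to 3′ on the gene's strand. The promoters of the 8 members that the table held were searched on both strands for 6 motifs. These were the cell-cycle element CHR with the letters TTTGAA, the CCAAT box, the GC box with the letters GGGCGG, the TATA box with the letters TATAAA, the AP-1 site with the letters TGACTCA and the E-box with the letters CACGTG. Capitals mark each match, and a match is a description of letters only.
Cd44 promoter, chr2:102901616-102901915, minus strand: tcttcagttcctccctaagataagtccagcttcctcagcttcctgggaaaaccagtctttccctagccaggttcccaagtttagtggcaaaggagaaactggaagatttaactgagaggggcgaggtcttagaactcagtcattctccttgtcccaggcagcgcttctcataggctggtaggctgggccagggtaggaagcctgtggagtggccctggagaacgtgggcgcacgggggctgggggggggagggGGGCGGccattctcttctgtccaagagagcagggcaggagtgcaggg
It held 1 GC box, which 35.6% of 32817 mouse promoters of this length hold, and none of the other 5.

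Hmmr encodes RHAMM, a hyaluronan-binding protein that also sits on the mitotic spindle and is made mostly by dividing cells. In induced tumours it was at 90.3, 116 and 128 CPM (lowest, median and highest), against 126, 117, 124, 110 and 127 CPM in controls 1 to 5. Induced 7 was below all others, and the remaining 11 tumours lay between 110 and 128 CPM. Its log2 fold change of -0.07 had a 95% interval of -0.26 to 0.12, so folds under 0.835 or over 1.09 lay outside the interval. Its spread within groups, 0.14 on the log2 scale, was smaller than that of 91.7% of the genes tested. Of 12 mitosis genes, 2 had higher and 10 lower values in induced tumours, none past the threshold, with a median log2 fold change of -0.08. Their summed level was 1369 to 1662 CPM in induced and 1490 to 1731 CPM in control tumours, and induced 7 was at 1406 CPM.

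Hmmr spans chr11:40701395-40733422 (minus strand). Its promoter is shown because the gene is known to follow the cell cycle, and CHR and CCAAT letters are common in promoters of mitosis genes.
Hmmr promoter, chr11:40733388-40733687, minus strand: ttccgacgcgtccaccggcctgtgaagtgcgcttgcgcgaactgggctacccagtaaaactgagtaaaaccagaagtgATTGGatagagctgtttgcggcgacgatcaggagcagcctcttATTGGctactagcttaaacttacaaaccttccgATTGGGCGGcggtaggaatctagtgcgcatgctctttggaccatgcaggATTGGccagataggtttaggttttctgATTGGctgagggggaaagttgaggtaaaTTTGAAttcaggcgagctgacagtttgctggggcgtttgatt
It held 5 CCAAT boxes, all on the opposite strand, 1 CHR at 8 bases after the start and 1 GC box that shares letters with a CCAAT box. At least 1 CCAAT is found in 37.4% and at least 1 CHR in 17.9% of mouse promoters of this length.

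Vcan encodes versican, a large chondroitin sulphate proteoglycan that binds hyaluronan through its N-terminal end and builds up in tumour stroma. It varied most among the well-counted members, by 3.53-fold between the lowest and the highest tumour. In induced tumours 1 to 7 it was at 69.2, 72.6, 133, 97.7, 52.6, 37.6 and 42.1 CPM, against 77.1, 89.2, 54.5, 52.7 and 73.4 CPM in controls 1 to 5. Induced tumours thus held both the 2 highest and the 3 lowest values. The spread was 33.6 CPM in induced and 15.6 CPM in control tumours (SD, n = 7 and n = 5), and whether these spreads differ was not tested. The log2 fold change was 0.05 (95% interval -0.56 to 0.67), an interval of 0.679-fold to 1.59-fold. Its sign was not stable, with -0.16 without induced 3, -0.04 without induced 4, -0.03 without control 3, -0.04 without control 4 and -0.15 without the 4 tumours that lay apart.

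Those 4 tumours had the highest Vcan, at 77.1 to 133 CPM, while the other 8 lay between 37.6 and 73.4 CPM. The tumours were set apart on all genes that passed the filter, Vcan among them, so this is a description and was not tested. Fibroblast markers summed to 1304 to 3650 CPM in the 4 and to 637 to 1128 CPM in the other 8, without overlap. These markers were among the genes that set the tumours apart. Single markers did not all separate them. In induced 3, Dcn was at 4.00, Lum at 0.759 and Col1a1 at 47.4 CPM. Among the 8, Dcn was at 9.59 CPM in induced 2, Lum at 1.34 CPM in induced 5 and Col1a1 at 83.6 CPM in control 5. Within the 8, Vcan and the summed fibroblast markers had Pearson's r of 0.67 and Spearman's rho of 0.60, given as a description because the points share library depth and scaling. The part of fibroblasts in the Vcan values was not tested. Has3 had an r of 0.72 with the fibroblast sum over the 8 tumours (rho 0.83), and its r with Vcan was 0.71 (rho 0.76). Hyal2 had an r of 0.86 (rho 0.98) with the fibroblast sum, which was 0.36 (rho 0.69) over all 12 tumours. In that sum Col3a1 weighed most on average, with a mean of 637 CPM in induced and 871 CPM in control tumours. Summed markers of other cell types moved with Vcan or Has3 as well, and in part more closely. These are sums of CPM, so the most counted genes weigh most. Lipe averaged 8.55 CPM in induced and 9.92 CPM in control tumours, and Cfd 6.00 and 8.34 CPM. Adipoq averaged 1.02 and 2.17 CPM. Csf3r was the largest neutrophil marker on average, at 8.95 CPM in induced and 17.4 CPM in control tumours. Whether single markers carry these relations was not tested. In the same 8 tumours Vcan had an r of 0.94 (rho 0.95) with the summed adipocyte markers, which was 0.16 over all 12, and of 0.71 (rho 0.57) with macrophage markers. Has3 had an r of 0.93 (rho 0.86) with the summed neutrophil markers. Over all 12 tumours that r was 0.67, and 0.47 once induced 7 and control 2 were left out. Adipocyte markers summed to 8.85 to 28.0 CPM in induced and 9.60 to 47.9 CPM in control tumours, with 5 of 5 tested lower in value in induced tumours and Adipoq and Lep at 0 in some tumours of both groups. Neutrophil markers summed to 11.5 to 27.7 CPM in induced and 13.1 to 122 CPM in control tumours, with 1 higher and 4 lower in value of 5 tested and none at 0. In the edgeR fit 4 of these 5 had an unadjusted p under 0.05, which 2.13% of all genes had, and none an adjusted one. The part of these cells in the Vcan and Has3 values was not tested either. In all 126 such relations were computed among the members and 10 summed gene lists.

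**Figure D4:**
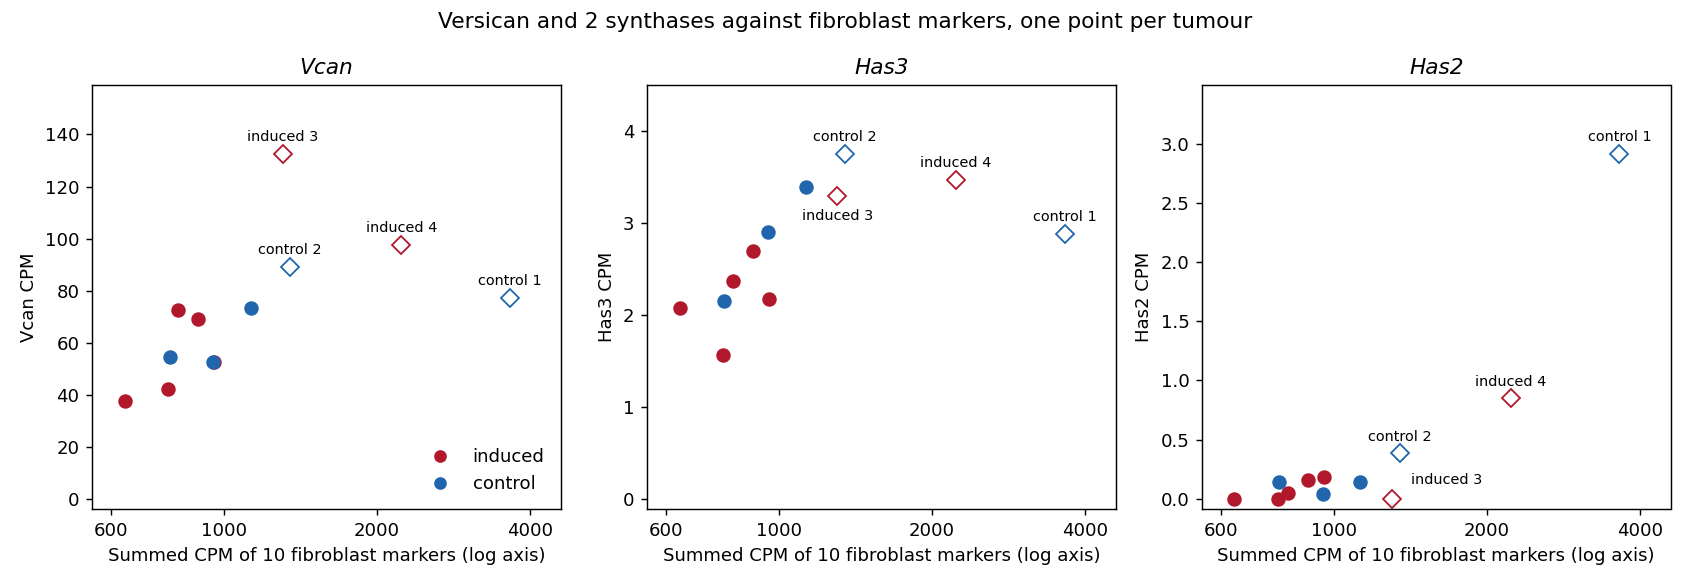
Vcan, Has3 and Has2 in CPM (y axes, linear) against the summed CPM of 10 fibroblast markers (x axes, logarithmic), one point per tumour and open diamonds for the 4 tumours that lay apart. Vcan is highest at 133 CPM in induced 3, Has3 at 3.75 CPM in control 2 and Has2 at 2.91 CPM in control 1, the tumour with the highest marker sum.

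Vcan spans chr13:89655312-89742509 (minus strand), with 14462 exonic bases, the longest of the members. Its promoter is shown as that of the member that varied most among the well-counted ones.
Vcan promoter, chr13:89742463-89742762, minus strand: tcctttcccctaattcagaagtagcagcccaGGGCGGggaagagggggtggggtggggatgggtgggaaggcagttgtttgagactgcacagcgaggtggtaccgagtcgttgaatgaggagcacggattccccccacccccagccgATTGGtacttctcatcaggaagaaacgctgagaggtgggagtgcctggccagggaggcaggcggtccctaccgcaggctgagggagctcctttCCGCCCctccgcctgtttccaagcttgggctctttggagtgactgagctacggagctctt
It held 2 GC boxes and 1 CCAAT box.

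Tnfaip6 encodes TSG-6, a secreted protein induced by inflammatory cytokines that links hyaluronan chains by transferring heavy chains of inter-alpha-inhibitor onto them. In induced tumours 1 to 7 it was at 11.5, 12.3, 12.6, 7.05, 12.1, 12.3 and 19.7 CPM, against 11.6, 9.18, 10.4, 10.9 and 9.38 CPM in controls 1 to 5. Again 5 of 7 induced tumours were above every control tumour, induced 7 by the most, and induced 4 was below every control tumour. The background for that count is again the 1.09% of all genes given for Hyal1. By edgeR it was 1.22-fold higher in value, or 0.28 on the log2 scale (95% interval -0.14 to 0.71, SE 0.20), which did not pass the test (adjusted p = 0.99989). It was 0.14 without induced 7 and 0.38 without induced 4, and 0.41 without the 4 tumours that lay apart (adjusted p = 0.990, and 0.728 to 1 over the 19 alternatives). The spread was 3.73 CPM in induced and 1.01 CPM in control tumours (SD, n = 7 and n = 5), and whether it differs was not tested.

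Tnfaip6 spans chr2:52038009-52056686 (plus strand). Its promoter is shown as that of a gene known to answer to cytokines.
Tnfaip6 promoter, chr2:52037863-52038162, plus strand: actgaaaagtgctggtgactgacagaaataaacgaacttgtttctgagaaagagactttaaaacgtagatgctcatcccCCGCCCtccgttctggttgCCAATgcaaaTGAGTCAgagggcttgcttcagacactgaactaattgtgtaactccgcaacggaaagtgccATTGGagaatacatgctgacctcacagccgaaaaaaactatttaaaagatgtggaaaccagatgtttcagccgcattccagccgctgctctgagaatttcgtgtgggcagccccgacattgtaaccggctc
It held the 1 AP-1 match among the 8 member promoters, 142 bases before the start and on the opposite strand, where 5.2% of mouse promoters hold one. It also held 2 CCAAT boxes and 1 GC box.

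**Figure D5:**
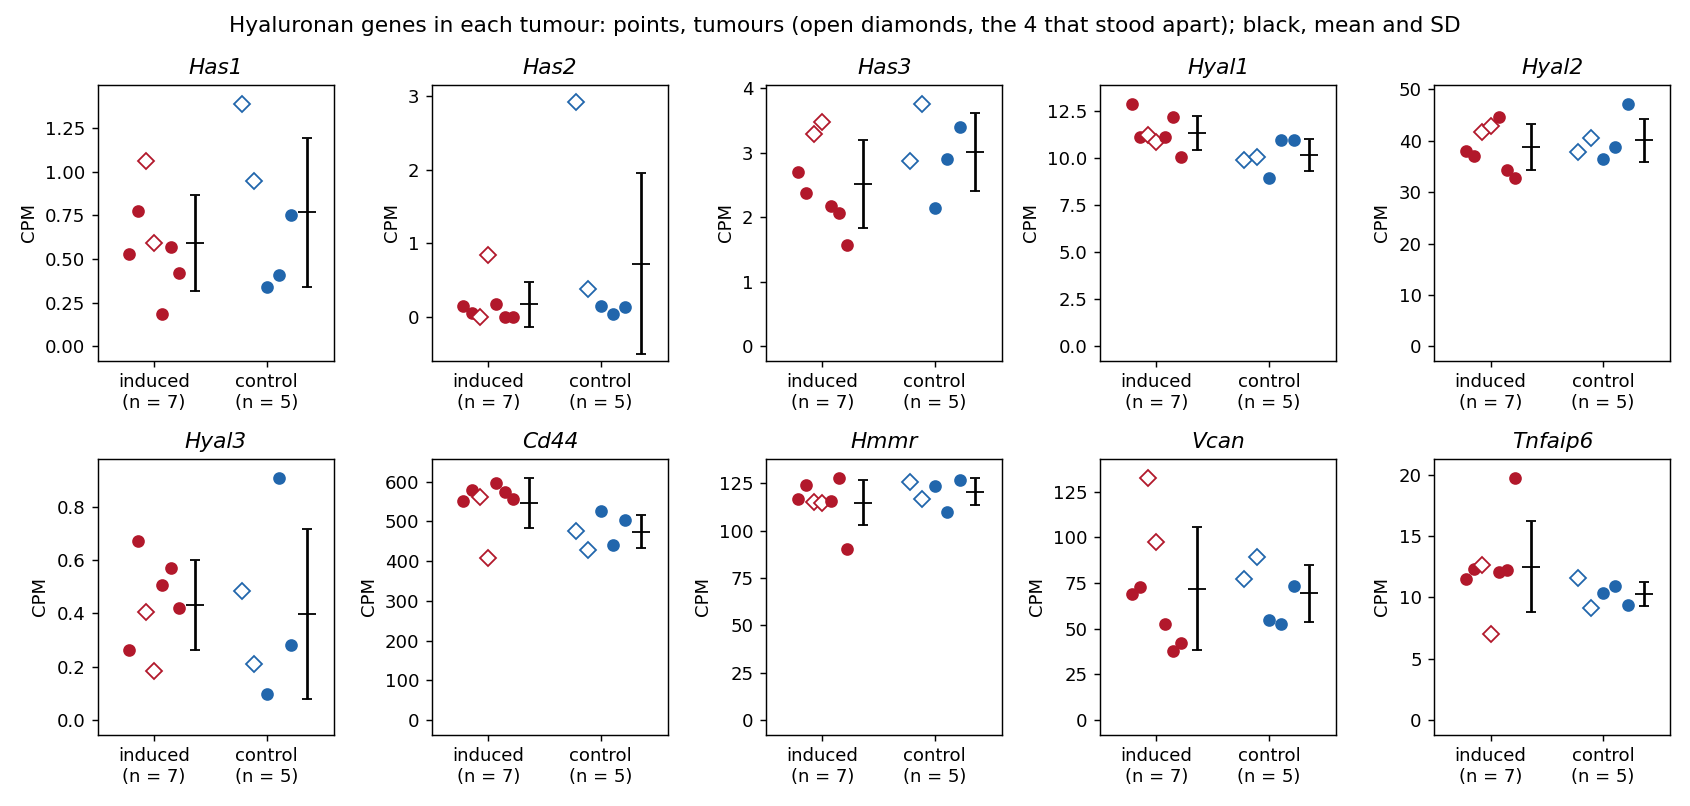
CPM (y axis, linear, with 0 shown) of each member in every tumour, induced tumours left and control tumours right, with the mean and SD in black. Cd44 shows 6 of 7 induced tumours above all controls and induced 4 at 409 CPM, Tnfaip6 shows induced 7 at 19.7 CPM, and Has2 shows control 1 at 2.91 CPM.

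No gene of the wider pathway passed the test either. Of 52 further genes in 6 lists, without the mitosis genes described with Hmmr, 47 were in the table and 32 were tested, with 16 higher and 16 lower in value in induced tumours. Of these 1 reached an unadjusted p under 0.05 (2.13% of all genes did), and their median log2 fold change was -0.0053. The 8 genes that supply the sugar nucleotides, all tested, had 5 higher and 3 lower in value and a median log2 fold change of 0.04. Slc35d1, a carrier of UDP-sugars into the endoplasmic reticulum, averaged 14.4 ± 1.39 CPM in induced and 13.3 ± 1.78 CPM in control tumours. Gnpnat1, which acetylates glucosamine phosphate, averaged 60.3 ± 8.23 CPM in induced and 56.4 ± 4.46 CPM in control tumours. Uap1, which makes UDP-N-acetylglucosamine, averaged 54.3 ± 4.78 CPM in induced and 51.0 ± 4.74 CPM in control tumours (SD, n = 7 and n = 5).

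Among other genes of breakdown, 1 was higher and 4 lower in value of 5 tested. The gene with the unadjusted p under 0.05 was Cemip, which is needed for hyaluronan breakdown by skin fibroblasts. It averaged 0.385 ± 0.127 CPM in induced and 1.06 ± 1.47 CPM in control tumours (SD, n = 7 and n = 5), with 106 counts in control 1 and at most 14 in any other tumour. Its log2 fold change of -1.47 over all tumours became -0.10 without control 1 and -0.07 without the 4 tumours that lay apart. The lysosomal glucuronidase gene Gusb was at 60.9 ± 10.2 CPM in induced and 68.1 ± 9.72 CPM in control tumours, and the lysosomal hexosaminidase gene Hexa was at 133 ± 15.9 CPM in induced and 142 ± 22.3 CPM in control tumours.

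Of the other receptors 2 were higher and 3 lower in value of 5 tested, with a median log2 fold change of -0.29. Lyve1, a hyaluronan receptor of lymphatic endothelium and some macrophages that was picked after its values were seen, averaged 12.5 ± 24.1 CPM in induced and 9.15 ± 12.4 CPM in control tumours. Its highest value was 67.0 CPM, and its fold change of 0.45 on the log2 scale was -1.42 without induced 4, 1.80 without control 1 and 0.06 without the 4 tumours that lay apart. Layn, encoding the receptor layilin, averaged 43.1 ± 8.65 CPM in induced and 38.3 ± 2.59 CPM in control tumours. Among the lower ones, the Toll-like receptor gene Tlr2 averaged 8.24 ± 4.73 CPM in induced and 11.5 ± 6.58 CPM in control tumours, and the scavenger receptor gene Stab1 34.3 ± 18.7 CPM in induced and 46.3 ± 34.4 CPM in control tumours. Of the other hyaluronan-binding matrix genes just 3 of 15 passed the filter, 1 higher and 2 lower in value. The highest of these 3 in any tumour was Itih5, at 16.7 CPM. It encodes an inter-alpha-inhibitor heavy chain and averaged 1.57 ± 1.45 CPM in induced and 4.17 ± 7.00 CPM in control tumours (SD, n = 7 and n = 5). Its log2 fold change of -1.40 turned to 0.60 without control 1 and to 0.13 without the 4 tumours that lay apart.

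Partners of Cd44 had 5 higher and 1 lower in value of 6 tested, with a median log2 fold change of 0.11. Msn, which encodes moesin, a linker from CD44 to actin, averaged 974 ± 99.1 CPM in induced and 921 ± 117 CPM in control tumours. Rdx, encoding the related radixin, averaged 223 ± 20.2 CPM in induced and 201 ± 22.4 CPM in control tumours. Of the proteases that cut CD44, Mmp14 averaged 391 ± 69.2 CPM in induced and 357 ± 68.3 CPM in control tumours, and Adam17, the 1 lower in value, 152 ± 35.0 CPM in induced and 168 ± 36.5 CPM in control tumours. Of 5 versican proteases tested, 2 were higher and 3 lower in value. Adamts5 averaged 1.28 ± 0.986 CPM in induced and 3.88 ± 6.56 CPM in control tumours, and its log2 fold change of -1.60 turned to 0.43 without control 1 and to 0.24 without the 4 tumours that lay apart. Adamts20 averaged 12.6 ± 3.37 CPM in induced and 10.4 ± 2.83 CPM in control tumours, and Adamts1 averaged 36.7 ± 12.4 CPM in induced and 33.7 ± 9.31 CPM in control tumours.

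The genes whose levels across the 12 tumours were most like those of a member were ranked by Pearson's r of log2 CPM among 10964 genes, as a description. For each, Spearman's rho and r over the 10 tumours left without the 2 farthest from the member's median are given too. For Vcan these were Msl3 (r = 0.95, rho = 0.94, r = 0.96 in 10), Lmbrd1 (0.94, 0.92 and 0.88) and Sft2d2 (0.94, 0.90 and 0.87). For Has3 they were Cers2 (r = 0.93, rho = 0.91, r = 0.89 in 10), Slc2a6 (0.92, 0.97 and 0.94) and Clcn7 (0.91, 0.91 and 0.85). These genes were picked for a high r over the 12 tumours, so r in 10 of the same tumours is high in part by that choice. Over the 8 tumours that did not lie apart, r was 0.94, 0.84 and 0.88 for the 3 genes of Vcan. For the 3 genes of Has3 it was 0.91, 0.95 and 0.87. For Hyal2 they were Slc35c1 (r = 0.93, rho = 0.95, r = 0.95 in 10), Rhobtb2 (0.88, 0.87 and 0.80) and Apex2 (0.87, 0.86 and 0.83). For Cd44 they were Spred2 (r = 0.91, rho = 0.82, r = 0.82 in 10), Asb7 (0.90, 0.81 and 0.83) and Creb5 (0.87, 0.84 and 0.75). For Tnfaip6 they were Hao1 (r = 0.92, rho = 0.72, r = 0.63 in 10), Spry2 (0.92, 0.78 and 0.62) and Alkbh5 (0.92, 0.87 and 0.73), with induced 7 and induced 4 left out. For Hmmr they were Slc30a5 (r = 0.85, rho = 0.57, r = 0.53 in 10) and the mitosis genes Kif23 (0.83, 0.45 and 0.08) and Mki67 (0.83, 0.55 and 0.62). The likeness of Hmmr to Kif23 rested on induced 7 and induced 6. For Hyal1 they were Airn (r = 0.82, rho = 0.84, r = 0.63 in 10), Neurl1a (0.79, 0.84 and 0.81) and Zfp235 (0.76, 0.74 and 0.59). On few counts, Has1 was most like Sp4 (r = 0.90, rho = 0.94, r = 0.88 in 10), Zfp600 (0.87, 0.87 and 0.79) and Tet2 (0.85, 0.85 and 0.80). Hyal3, also on few counts, was most like Pde6h (r = 0.76, rho = 0.80, r = 0.81 in 10), Aqp11 (0.75, 0.80 and 0.60) and Pigo (0.74, 0.71 and 0.71).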

How the data were processed

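RNA of 12 tumours had been sequenced from SMARTER mRNA-seq libraries, per the labels' protocols. Per the submitters' processing notes the build was GRCm38 (mm10), while no aligner, counting tool or strand setting is stated in the sources used here. The labels' culture text describes fat cell differentiation, which is not these tumours, so groups came from titles and treatment. The authors deposited, per the file headers, a table with counts of each gene, rlog values on the log2 scale and a comparison with log2 fold change, signed fold change (used here as a deposited score) and p-values. Only the counts were analysed.

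Counts were tested with edgeR 4.0.16 (R 4.3.3; TMM, filterByExpr with minimum count 10, robust quasi-likelihood F test, two-sided, Benjamini-Hochberg over 15199 genes, threshold 0.05), with fold changes induced minus control and intervals from the same fit. Log2 CPM used a prior count of 2. Alternatives were other size factors, no filter, DESeq2 1.42.0, limma 3.58.1 (voom, weighting samples by quality), a block for the replicate number and leaving out each tumour. Replicate numbers did not pair tumours (correlations of deviations -0.531 to 0.21). Among pairs of libraries of the same group, none agreed within sampling noise (chi-square per gene at least 13.0). Positions, exons and lengths came from GENCODE release 21 (GRCm38), promoters from RefSeq (GRCm38.p6), which held 8 of the 10 members. All 10 members and, per member, 3 most alike genes were named. From each further list, genes among the 4 with the smallest p were named, with Lyve1, Esrp1 and Esrp2 added after their values were seen. The members, lists and the 4 tumours set apart were chosen with earlier results of these data known.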

Additional observations from a re-analysis of the deposited data

Results flagged for a closer look

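In 20 group-by-gene sets of CPM values, 4 had a tumour far from the others of its group by Dixon's gap test, where chance gives about 1 in 20. That rate holds for independent, normally distributed values. Has2, with few counts, need not meet this, and the sets share tumours, so no excess is read from the 4. Has2 was at 0.849 CPM in induced 4, the highest induced tumour by 0.782 of that group's range, and at 2.91 CPM in control 1, the highest control tumour by 0.881 of its range. Cd44 was at 409 CPM in induced 4, the lowest induced tumour by 0.762 of the range. Hmmr was at 90.3 CPM in induced 7, the lowest induced tumour by 0.649 of the range. Induced 4 and control 1 are among the 4 that lay apart in the analysis of all genes that passed the filter.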

How the results depend on the processing

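Under all 19 alternatives, 0 genes, 0 members and 0 of the pathway genes passed the threshold. Genes with an unadjusted p under 0.05 numbered 324 of 15199 as reported, 621 of 25116 with edgeR and no filter, 607 of 25116 with DESeq2, also without that filter, 995 with limma-voom and quality weights, and 108 with the replicate block. Leaving out 1 tumour gave 198 to 745. Members with a value higher in induced tumours numbered 5 of 9 as reported, 6 with the replicate block and 3 to 6 on leaving out 1 tumour, and 3 without control 3. In 3 of those fits 8 members were tested. Cd44, Has1, Has3, Hmmr, Hyal1 and Tnfaip6 kept the sign of their log2 fold change under all 19. Vcan turned to -0.14 with limma-voom and -0.15 without the 4 tumours that lay apart, an alternative added after seeing the data, and ranged from -0.16 to 0.16 on leaving out 1 tumour. Hyal2 turned to 0.029 with the replicate block and ranged from -0.091 to 0.017 on leaving out 1. Hyal3 ranged from -0.14 to 0.63 on leaving out 1 and was not tested in 3 such fits. For these reversals the cause was not tested. Low counts limit Has1, Has2 and Hyal3, and the 95% interval of Hyal3 reaches from 0.522-fold to 2.23-fold.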

Other observations

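Tnfaip6 ran opposite to Has3 across the 8 tumours that did not lie apart, with Pearson's r of -0.84 and Spearman's rho of -0.67, while r over all 12 tumours was -0.77, and -0.54 once induced 7 and control 2 were left out. Hmmr and Tnfaip6 had an r of -0.83 in the same 8 tumours but a rho of -0.24. Over all 12 tumours that r was -0.56, and 0.09 once induced 7 and induced 6 were left out. Cd44 and Tnfaip6 had an r of 0.39 and a rho of 0.71 in the 8. These values were picked from 126 relations after they were seen and carry no test.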
